A study of Caenorhabditis elegans with 2 samples.

Results

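The body wall muscle structure genes are 44 Caenorhabditis elegans genes, most of which build, anchor or excite the contractile apparatus of the worm's locomotory muscle. The list also holds hlh-1, a transcription factor, and act-5, an actin known from the intestine. All were taken by symbol from a list, and all 44 were found among 19973 nuclear protein-coding genes. They were assigned by hand to thick filament (12 genes), thin filament (15), attachment (13) and membrane (3) classes, with hlh-1 set apart. The T-box transcription factor TBX-2 was mapped by chromatin immunoprecipitation and sequencing in hermaphrodite late embryos, collected 3.5 h after egg bleaching. The strain, OP159, has the genotype unc-119(ed3) III; wgIs159 and carries TBX-2 fused at its C-terminus to GFP and FLAG; the fusion was precipitated through its GFP. There was 1 group with 2 biological replicates, so no condition was compared with another. Whole embryos were used, in which muscle is only a share of the cells, so a peak at a muscle gene does not say in which cells it arose. The files hold no expression values, so the muscle label could not be checked against marker levels. Both replicates carry the transgene. Data from animals without the tagged protein were not analysed here.

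In each sarcomere of body wall muscle, myosin thick filaments slide past actin thin filaments, and the force passes through integrin complexes at dense bodies and M-lines to the basement membrane and the cuticle. Troponin and tropomyosin gate contraction on the thin filament, while calcium channels and the dystrophin complex act at the membrane. TBX-2 itself is best known in worms for its role in the pharyngeal muscles of the feeding organ, not in body wall muscle.

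The promoters of muscle structure genes carried TBX-2 peaks in 19 of 44 cases, or 43.2% (95% exact binomial interval 28.3 to 59.0), against 11.5% of all protein-coding genes and 2270 of 19929 (11.4%) of the genes outside the list. A gene was counted when a summit, the highest point of a peak, lay within 1 kb of any of its annotated 5′ ends and the peak was in the optimal set, the 3053 peaks that the authors retained after a reproducibility filter. With summits inside the gene added, 21 of 44 (47.7%, 32.5 to 63.3) were reached, against 12.8% of all genes. The additional 2 were lev-11 and ttn-1. The intervals cover counting error over genes only, and genes are not independent replicates. Upstream space differed between the groups. The gap to the next gene had a median of 2623 bp for the muscle genes and 935 bp for other genes, and its part in the result was not tested. Among the muscle genes the median gap was 2623 bp for those with a peak and 2647 bp for those without. Among other genes these medians were 705.5 bp and 966.0 bp.

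The peaks were mostly of moderate strength. Of the 500 strongest optimal peaks, 1 lay at a muscle gene, unc-112 (2.27% of the list, against 2.38% of all genes). Peak signal, the authors' own value per peak, had a median of 103 at the 19 muscle genes and 139 at the 2270 other genes with a peak. Peaks were also ranked by signal within their list, with rank 1 the strongest, and the median rank was 2089 for muscle genes and 1273 for other genes. Of the genes with a peak, 2 of the 19 muscle genes (10.5%) and 923 of the 2270 other genes (40.7%) had one of rank 1000 or better. Over all genes, with or without a peak, that was 4.55% of the 44 muscle genes and 4.63% of all protein-coding genes. When the pooled list, called on both replicates together, was followed to rank 5000, 29 muscle genes (65.9%, 50.1 to 79.5) had a summit within 1 kb, against 16.4% of all genes. That limit was chosen after seeing the data. The whole pooled list of 25747 peaks, which the labels describe as holding background too, reached 39 (88.6%), against 44.5%.

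**Figure D1:**
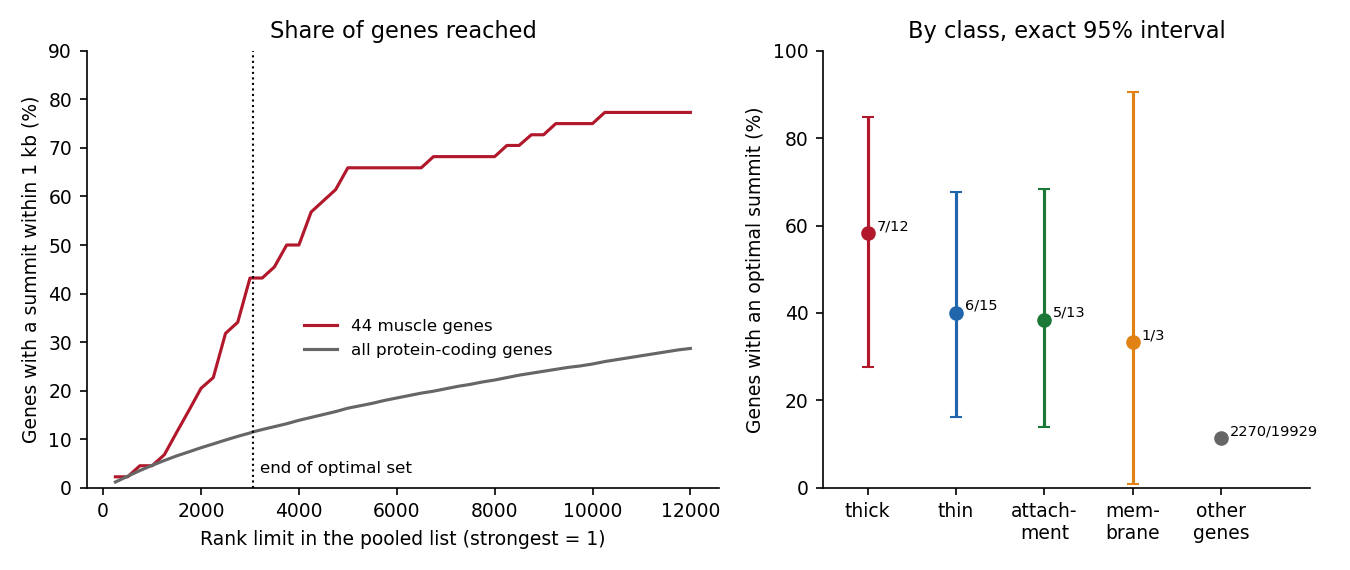
The left plot gives the percentage of genes with a summit within 1 kb of a 5′ end as the pooled list is followed from its strongest peak to weaker ones, for the 44 muscle genes (red) and all protein-coding genes (grey), and the dotted line marks the 3053 peaks of the optimal set. The right plot gives the share per class with its exact 95% interval, with 7 of 12 thick filament genes, 6 of 15 thin filament genes, 5 of 13 attachment genes and 1 of 3 membrane genes, and 2270 of 19929 genes outside the list; hlh-1, with no such summit, is not drawn. The lines run close together over the 500 strongest peaks and part beyond rank 1000.

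To show what DNA lay under these peaks, windows that reach 50 bases to each side of the summit are given for the 2 strongest peaks (unc-112 and unc-60), for a pair that holds a T-box core (pat-3 and tnt-2), for a pair that holds an element common to many peaks (unc-22 and pat-4) and for the promoters of divergent gene pairs (mlc-1 with mlc-2, act-1 with act-2). They were read from the NCBI RefSeq WBcel235 genome, the ce11 build of the files, 5′ to 3′ on the strand of the gene. Capitals mark a match on either strand to one of 9 motifs sought.
unc-112, chrV:14697044-14697144, minus strand: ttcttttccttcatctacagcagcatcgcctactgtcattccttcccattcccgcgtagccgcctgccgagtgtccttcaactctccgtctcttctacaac
unc-60, chrV:1474632-1474732, plus strand: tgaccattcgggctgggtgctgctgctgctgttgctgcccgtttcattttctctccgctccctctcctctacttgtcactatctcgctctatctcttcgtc
pat-3, chrIII:3915044-3915144, minus strand: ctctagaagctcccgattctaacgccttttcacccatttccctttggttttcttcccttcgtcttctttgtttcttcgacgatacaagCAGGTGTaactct
tnt-2, chrX:8723924-8724024, minus strand: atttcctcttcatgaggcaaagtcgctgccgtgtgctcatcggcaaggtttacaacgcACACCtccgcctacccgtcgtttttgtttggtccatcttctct
unc-22, chrIV:12010599-12010699, minus strand: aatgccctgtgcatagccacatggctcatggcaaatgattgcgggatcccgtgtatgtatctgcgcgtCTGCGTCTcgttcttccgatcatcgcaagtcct
pat-4, chrIII:95114-95214, minus strand: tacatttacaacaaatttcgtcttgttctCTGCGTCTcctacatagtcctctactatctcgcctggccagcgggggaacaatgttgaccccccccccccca
mlc-1, chrX:17459066-17459166, plus strand: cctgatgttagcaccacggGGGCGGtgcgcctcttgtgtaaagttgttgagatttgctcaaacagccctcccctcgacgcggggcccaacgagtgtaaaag
mlc-2, chrX:17457027-17457127, minus strand: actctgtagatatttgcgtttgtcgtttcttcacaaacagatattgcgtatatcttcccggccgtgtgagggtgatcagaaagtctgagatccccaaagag
act-1, chrV:11080452-11080552, plus strand: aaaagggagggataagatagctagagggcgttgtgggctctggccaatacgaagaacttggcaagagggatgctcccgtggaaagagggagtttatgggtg
act-2, chrV:11078528-11078628, minus strand: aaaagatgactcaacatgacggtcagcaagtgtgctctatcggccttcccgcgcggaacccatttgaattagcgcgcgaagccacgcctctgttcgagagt

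In these windows the T-box core GGTGT, the short centre of the sequence that T-box factors bind, was found in 3 of the 21 peak windows of muscle genes (14.3%), against 20.8% of all 3034 nuclear optimal windows. The 3 genes were unc-54, tnt-2 and pat-3. The longer T-box site GGTGTGA was in none of the 21 and in 1.32% of all windows. The E-box CACCTG, a sequence that helix-loop-helix factors such as HLH-1 can bind, was in the windows of ttn-1 and pat-3 (9.52%, against 3.07%), and in pat-3 it shares bases with the T-box core. The E-box CAGCTG was in none, against 3.23%. The CArG box, the site of SRF-type muscle factors, and the MEF2 site were also in none, against 0.231% and 0.791%.

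Elements that recur at many promoters were found as well. The GC-box GGGCGG was in the windows of mlc-1, mlc-3 and lev-11 (14.3%, against 7.81% of all windows). The element CTGCGTCT was in those of unc-22 and pat-4 (9.52%, against 10.3%), and the GA repeat GAGAGAGA was in that of lev-11 (4.76%, against 8.7%). Any of the 9 motifs was present in 9 of 21 windows (42.9%), against 44.5%; all motifs were sought on both strands. The windows of the 2 strongest peaks, unc-112 and unc-60, held none of them. The GC content of the muscle windows had a median of 53.5% and ran from 38.6% at dys-1 to 63.4% at unc-54, against a median of 49.5% over all windows. These matches describe the letters in a window, not a bound site.

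Among thick filament genes, 7 of 12 had an optimal summit within 1 kb (58.3%, interval 27.7 to 84.8), and the median signal of their peaks was 111. These peaks lay close to an annotated 5′ end, with a median distance of -110 bp (negative distances are upstream) and a median absolute distance of 187 bp. The myosin heavy chain gene unc-54, which encodes the major myosin of body wall muscle, had the strongest of them, with a signal of 150.4 (chromosome I, 14863374 to 14863809, ce11) and its summit at -110 bp. Its rank was 1104 among the optimal peaks, 1094 in replicate 1 and 1323 in replicate 2. The gene of paramyosin, the core protein of the filament, unc-15, followed at -187 bp (chromosome I, 7383166 to 7383601), with rank 1657 among the optimal peaks, and ranked 1571 in replicate 1 and 2151 in replicate 2. Both genes therefore ranked in the upper 3053 peaks of each replicate.

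The myosin light chain genes all had a peak. The regulatory light chain genes mlc-1 and mlc-2 lie back to back with their 5′ ends 2624 bp apart, and each had a summit of its own, 2039 bp from the other. The peak of mlc-2 lay at -491 bp (chromosome X, 17456859 to 17457294) with rank 1846 among the optimal peaks, and ranked 1743 in replicate 1 and 1662 in replicate 2. The peak of mlc-1 had a signal of 83.1 at -94 bp (17458898 to 17459333). It ranked 3054 in replicate 1 and 4114 in replicate 2, so it was outside the 3053 strongest peaks of both and is the weakest at any muscle gene. The essential light chain gene mlc-3 had a signal of 103 at -38 bp (chromosome III, 5564769 to 5565204), with ranks of 1595 in replicate 1 and 2977 in replicate 2.

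Of the giant proteins that align the thick filament, twitchin, obscurin and the titin-like product all had a peak, in an intron of the gene in each case. The peak of unc-22 (twitchin, a kinase of the A-band) had a signal of 111 at 231 bp downstream of the nearest 5′ end (chromosome IV, 12010431 to 12010866), and ranked 2266 in replicate 1 and 1666 in replicate 2. It is the only one of the 19 summits on the downstream side, and the small coding gene ZK617.26 also has its 5′ end within 1 kb of it. In unc-89 (obscurin, an M-line protein) the summit lay 11111 bp into the gene, at -323 bp from an internal 5′ end (chromosome I, 4046595 to 4047030), with a signal of 85.4 and ranks of 2160 in replicate 1 and 3479 in replicate 2. In ttn-1 it lay 38628 bp into the gene, at -3350 bp from the nearest annotated 5′ end (chromosome V, 6163786 to 6164221), with a signal of 92.6 and ranks of 2248 in replicate 1 and 4178 in replicate 2.

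The other thick filament genes had weaker summits. Ranks of genes with no optimal summit within 1 kb, here and in what follows, are those of the strongest summit within 1 kb of a 5′ end, unless one inside the gene is named. For myo-3, the myosin heavy chain of the filament centre, the pooled rank was 4099, with 5468 in replicate 1 and 3035 in replicate 2. The M-line protein genes unc-98 and unc-96 had pooled ranks of 4037 and 4994. The replicates were far apart at both, with 12505 in replicate 1 and 2650 in replicate 2 for unc-98, and 5276 in replicate 1 and 14320 in replicate 2 for unc-96. The myosin chaperone gene unc-45 had its strongest summit within 1 kb at pooled rank 13861, and a stronger one inside the gene at rank 5189.

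Of the thin filament genes 6 of 15 had an optimal summit within 1 kb (40.0%, 16.3 to 67.7), all upstream, with a median signal of 107 and a median distance of -424 bp. The strongest peak was at unc-60, which encodes the ADF/cofilin proteins that sever actin filaments. Its signal was 214 at -404 bp (chromosome V, 1474597 to 1474820), and its rank was 517 among the optimal peaks, 508 in replicate 1 and 520 in replicate 2. The coding gene F53E2.2 is annotated with the same 5′ end, so the peak belongs equally to both. The gene of its partner, the actin-interacting protein unc-78, had a signal of 97.7 at -155 bp (chromosome X, 3411552 to 3411987), with the microRNA gene mir-271 at 234 bp from the summit. That peak ranked 1478 in replicate 1 and 3742 in replicate 2.

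The actin genes act-1 and act-2 face away from each other with 2898 bp between their 5′ ends, and as with the light chains each had its own summit, here 1924 bp apart. At act-2 the signal was 130.5 at -424 bp (chromosome V, 11078360 to 11078795), and the ranks were 1470 in replicate 1 and 1423 in replicate 2. At act-1 it was 84.0 at -550 bp (11080284 to 11080719), with ranks of 3043 in replicate 1 and 3249 in replicate 2. The third muscle actin gene, act-3, had a pooled rank of 9049, but 5537 in replicate 1 and 2532 in replicate 2. These genes are near-identical copies, and how reads shared between copies were placed is not given in the sources used here. That leaves the values at act-3 uncertain, and the part of read placement in them was not tested. The strongest act-3 summit within 1 kb lay inside the gene in the pooled list and in replicate 2, but outside it in replicate 1. The optimal summits of act-1 and act-2 lay outside the genes. The gene act-5, whose actin is known for the microvilli of the intestine, not for muscle, had a pooled rank of 18394, and a stronger summit inside the gene at rank 10897.

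In the troponin and tropomyosin system, which switches the thin filament on, peaks were at tnt-2 and inside lev-11. The troponin T gene tnt-2 had a signal of 117 at -424 bp (chromosome X, 8723756 to 8724191), with ranks of 2311 in replicate 1 and 1348 in replicate 2. In lev-11 (tropomyosin) the optimal peak lay in the long intron 2991 bp into the gene, at -2657 bp from the next internal 5′ end (chromosome I, 14627885 to 14628320). Its signal of 169.8 was higher than at any other muscle gene except unc-112 and unc-60, and it ranked 841 in replicate 1 and 947 in replicate 2. The strongest summit within 1 kb of a lev-11 5′ end was weaker, with pooled rank 3666.

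The rest of the troponins had no optimal peak by this rule. The pooled rank was 4015 for mup-2 (troponin T), 4399 for unc-27 (troponin I) and 8502 for pat-10 (troponin C), while the troponin I genes tni-1 and tni-3 had no pooled summit within 1 kb. Among the calponin family, cpn-3 had a signal of 91.8 at -624 bp (chromosome I, 3987098 to 3987533), with the replicates far apart at ranks of 4988 in replicate 1 and 1518 in replicate 2. The calponin-like bundling protein gene unc-87 had a pooled rank of 10200.

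**Figure D2:**
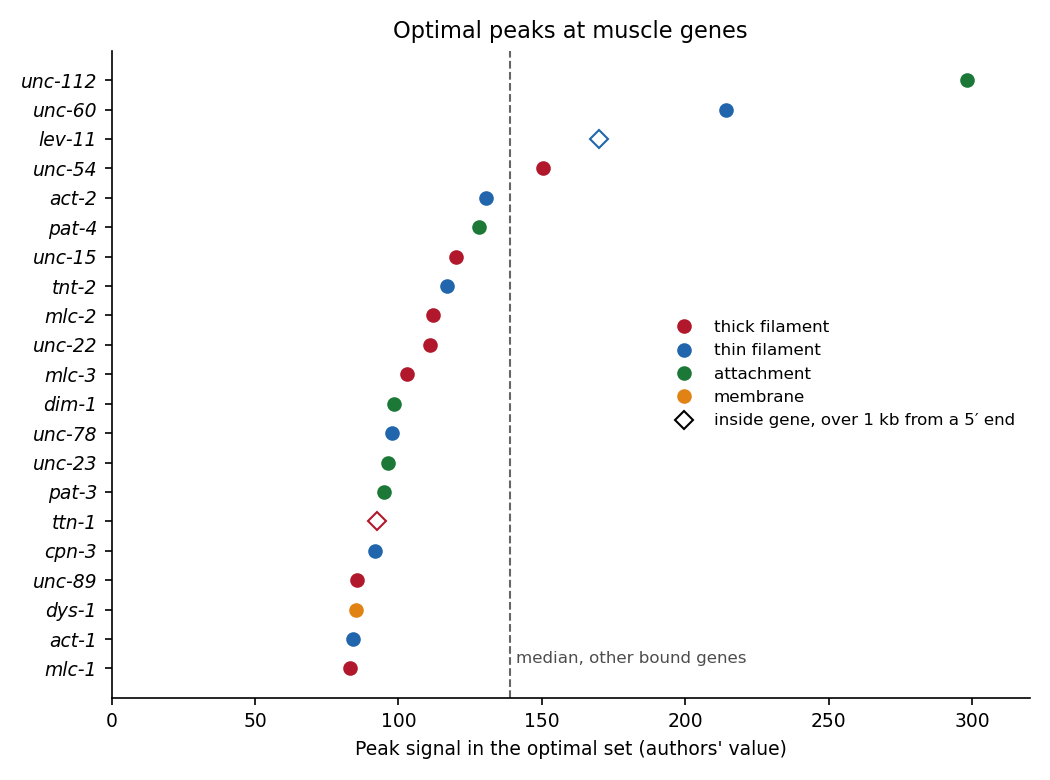
Each symbol is the optimal peak of 1 muscle gene within 1 kb of a 5′ end or inside the gene, placed by the authors' peak signal. Genes are ordered from the strongest at the top and coloured by class. Peaks farther from the gene, such as stronger ones near act-1 and mlc-3, are not drawn. Filled circles have the summit within 1 kb of a 5′ end, open diamonds (lev-11, ttn-1) lie inside the gene but farther away, and the dashed line is the median of 139 over the other genes with a peak; unc-112, unc-60, lev-11 and unc-54 lie to its right.

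Attachment genes had an optimal summit within 1 kb in 5 of 13 cases (38.5%, 13.9 to 68.4), all upstream, with a median signal of 98.3 and a median distance of -440 bp. The integrin-linked core of the attachment complex included the strongest peak at any muscle gene. It lay at unc-112, which encodes the kindlin that activates integrin, with a signal of 298 at -440 bp (chromosome V, 14696945 to 14697218), and its rank was 202 among the optimal peaks, 228 in replicate 1 and 197 in replicate 2. The integrin-linked kinase gene pat-4 had a signal of 128 at -355 bp (chromosome III, 94946 to 95381), with ranks of 1969 in replicate 1 and 1217 in replicate 2. The beta integrin gene pat-3 had a signal of 95.1 at -945 bp (chromosome III, 3914876 to 3915311), the farthest of the 19, with ranks of 2473 in replicate 1 and 2714 in replicate 2.

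The partners of these proteins differed. The parvin gene pat-6 had a pooled rank of 4685, with 6022 in replicate 1 and 2896 in replicate 2. The alpha integrin gene pat-2 and the PINCH gene unc-97 had no pooled summit within 1 kb. A weak one lay inside pat-2 at rank 23549, and unc-97 had an optimal peak just past that limit, at -1052 bp, with a signal of 169. Around the limit of 1 kb, pat-3 at -945 bp was therefore the last gene inside and unc-97 the first outside.

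Away from the integrin core, the co-chaperone gene unc-23, needed to keep muscle attached, had a signal of 96.3 at -23 bp (chromosome V, 8936118 to 8936553), with ranks of 2496 in replicate 1 and 3049 in replicate 2. In dim-1, which encodes an immunoglobulin-domain protein at the muscle membrane, the summit lay 5079 bp into the gene in an intron, at -461 bp from an internal 5′ end (chromosome X, 8052923 to 8053358). The replicates disagreed there. The overlapping peak ranked 1205 in replicate 1 and 17278 in replicate 2, in which its summit was 137 bp from the optimal one. The strongest replicate 2 summit within 1 kb of a dim-1 5′ end ranked 6002, and the strongest inside the gene ranked 4667. Of the remaining genes, unc-52 (perlecan of the basement membrane, pooled signal 75.8, rank 3439) and zyx-1 (zyxin, 72.7, rank 3647) came closest to the optimal set. With the pooled summit near lev-11 (72.4), they are the 3 strongest among the 25 muscle genes with no optimal summit within 1 kb. The dense body genes unc-95 (a LIM protein), deb-1 (vinculin) and atn-1 (alpha-actinin) had pooled ranks of 4842, 12790 and 13673. Inside deb-1 there was a stronger summit, at rank 6013.

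Of the membrane genes 1 of 3 had a summit (33.3%, 0.84 to 90.6), a number too small to set against the other classes. It was dys-1, the dystrophin gene, in which the summit lay in an intron 27787 bp into the gene, at -240 bp from an internal 5′ end (chromosome I, 11529846 to 11530281). Its signal was 85.3, with ranks of 3478 in replicate 1 and 2095 in replicate 2. The replicate 1 summit was 193 bp from the optimal one and nearer to a weaker pooled summit, of rank 4010. The calcium channel gene egl-19 had a pooled rank of 8140, with a stronger summit inside the gene at 5706, and the ryanodine receptor gene unc-68 had 21185, with a stronger one inside at 16841. The MyoD-type regulator hlh-1 had no optimal summit within 1 kb, and its pooled rank was 6636, with a stronger summit inside the gene at 5268. The intervals of the classes overlapped widely, and differences between the classes were not tested.

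**Figure D3:**
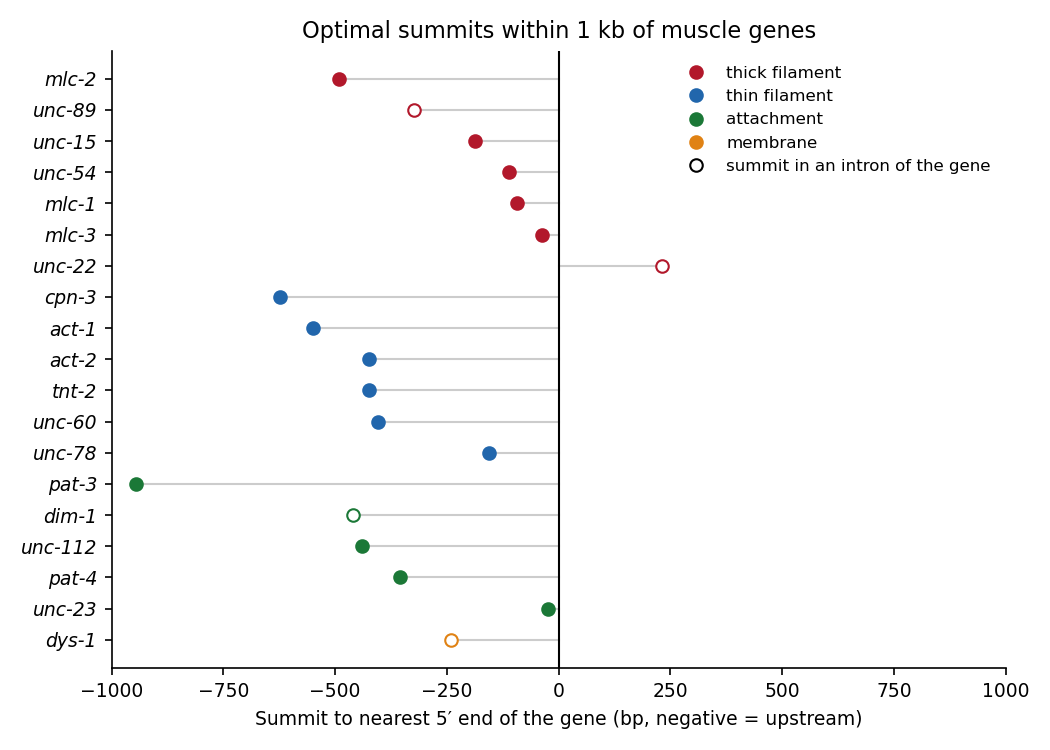
Position of the optimal summit of each of the 19 muscle genes against the nearest of its own 5′ ends, in bp with upstream to the left, grouped by class. Open circles are summits in an intron of the gene (unc-22, unc-89, dim-1 and dys-1), and all but unc-22 lie upstream.

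Most peaks at muscle genes sat at promoters that the gene did not share. Of the 19 summits 18 (94.7%) lay upstream, against 88.4% at other genes with a peak, and 15 lay outside the gene and 4 in an intron. The median absolute distance was 355 bp for muscle genes and 264 bp for other genes. In all 19 the gene's own 5′ end was the nearest one to the summit (at unc-60 tied with F53E2.2), against 74.3% at other genes. Another coding gene had a 5′ end within 1 kb of the summit in 2 of 19 (10.5%), against 50.2% at other genes. Upstream gaps, given above, were also longer at the muscle genes, and their part in this difference was not tested.

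Summits inside the gene body were no denser in muscle genes in the optimal set. There were 6 within the 450.2 kb of muscle genes, or 1.33 per 100 kb, against 1.47 per 100 kb in other genes. In the relaxed lists there were more. The pooled list had 33.5 summits per 100 kb in muscle genes against 23.2 in other genes, replicate 1 had 29.8 against 21.4, and replicate 2 had 30 against 20.7. Muscle genes are also longer, with a median of 4645.5 bp against 2026 bp.

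**Figure D4:**
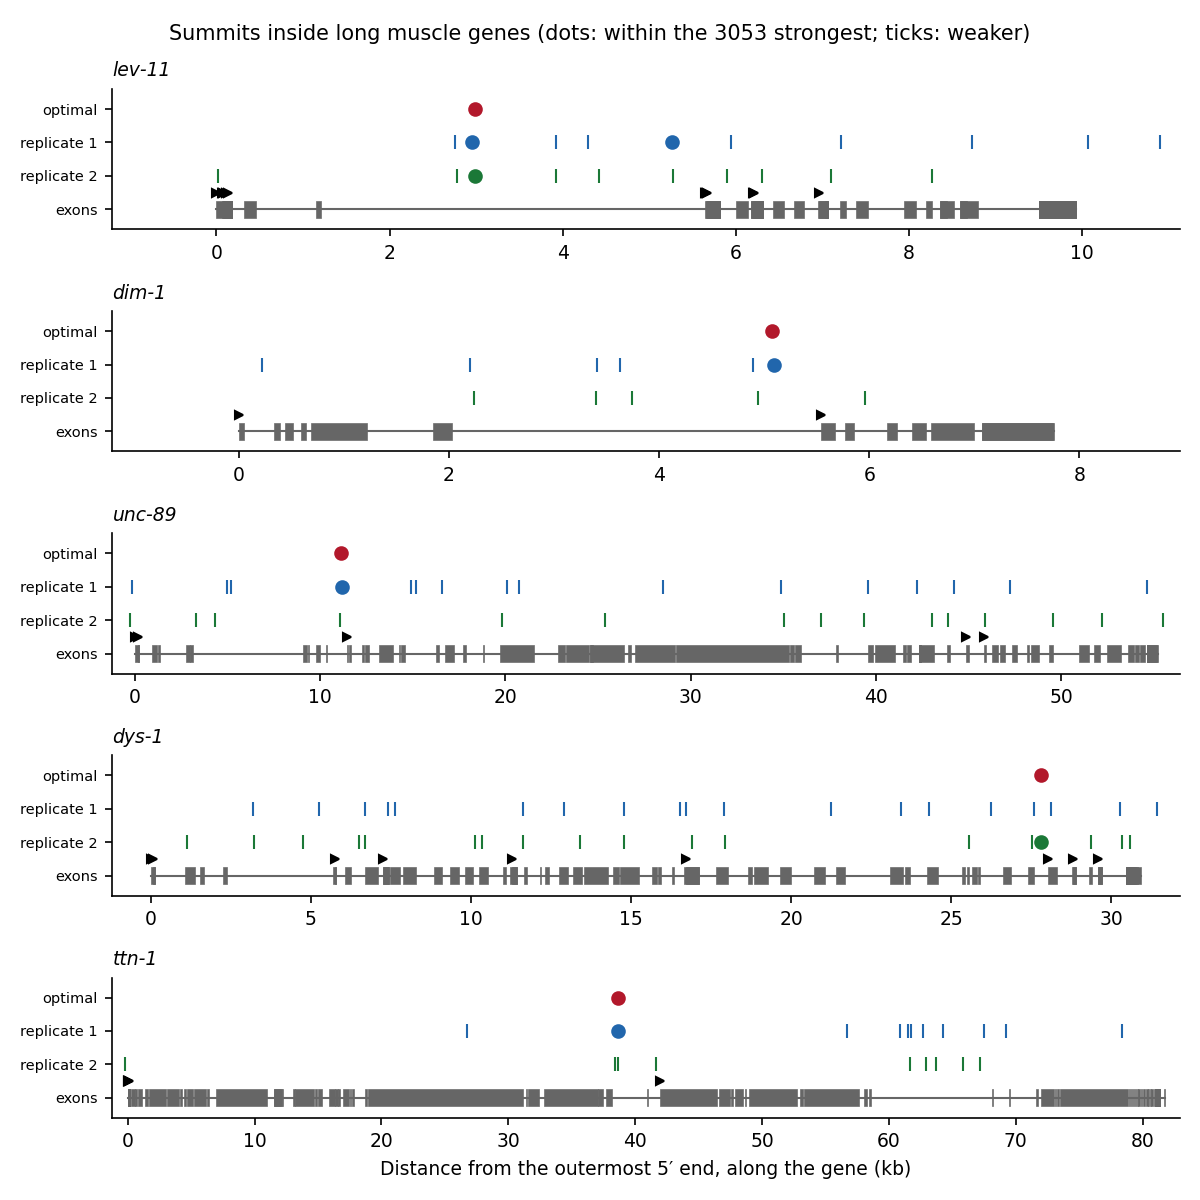
Maps of the 5 muscle genes with an optimal summit more than 1 kb into the gene, along the gene from the outermost 5′ end in kb, with exons as grey boxes and annotated 5′ ends as arrowheads. Dots are optimal summits, or replicate summits among the 3053 strongest, and ticks are weaker replicate summits; in lev-11 both replicates place a strong summit near the optimal one, in dim-1, unc-89 and ttn-1 replicate 1 does, and in dys-1 replicate 2 does.

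Each replicate alone gave much the same share. With the 3053 strongest peaks of each, replicate 1 reached 17 muscle genes (38.6%, against 11.2% of all genes) and replicate 2 reached 19 (43.2%, against 11.3%), a mean of 18 ± 1.41 (SD, n = 2). The genes were only partly the same, since 12 were reached in both (27.3%, against 9.2%), which is 70.6% of those of replicate 1 and 63.2% of those of replicate 2. Of the 19 genes of the optimal set, 12 were reached in both replicates, 4 in replicate 1 alone (act-1, dim-1, unc-78, unc-89), 2 in replicate 2 alone (cpn-3, dys-1) and 1, mlc-1, in neither. A further 6 genes outside the optimal set were reached by 1 replicate, lev-11 by replicate 1 and act-3, myo-3, pat-6, unc-52 and unc-98 by replicate 2. The optimal set equals the 3053 strongest pooled peaks, and it is drawn from the same reads as the replicates, so its overlap with them is a description.

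**Figure D5:**
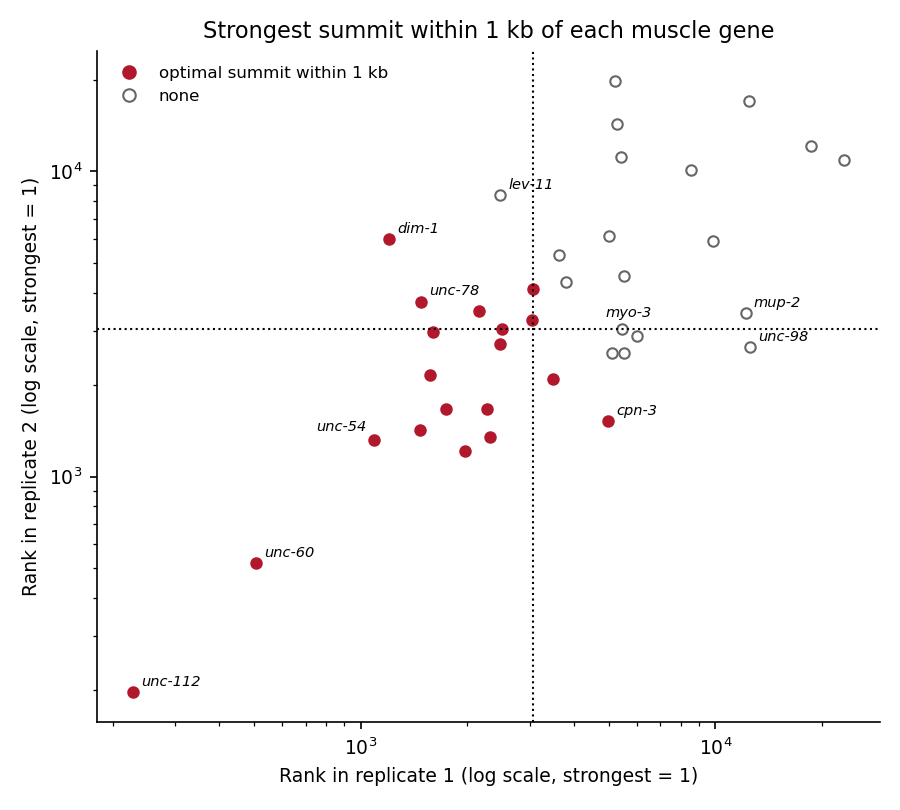
Rank of the strongest summit within 1 kb of each muscle gene in replicate 1 (horizontal) and replicate 2 (vertical), both on log scales with rank 1 the strongest, for genes with such a summit in both lists. Red points have an optimal summit within 1 kb, open points have none, and the dotted lines mark rank 3053; unc-112 and unc-60 stand at the strong end of both, while dim-1 and cpn-3 rank high in 1 replicate only.

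The genes with a peak were spread over 5 of the 6 chromosomes. They were 5 of 9 on chromosome I (against 16.2% of all genes there), 0 of 3 on II (10.9%), 3 of 6 on III (16.2%), 1 of 4 on IV (10.4%), 5 of 11 on V (6.43%) and 5 of 11 on X (13.1%).

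Related genes outside the 44 gave the following counts, from lists drawn up by hand for body wall muscle and, in 1 case, for the pharynx, and set against the same 11.5% of all genes. Of other thick and thin filament genes 6 of 20 had an optimal summit within 1 kb (30.0%, 11.9 to 54.3), with the highest signals at ufd-2 (258), a ubiquitin chain elongation factor that works with the UNC-45 chaperone, and at the actin capping protein genes cap-2 (204) and cap-1 (196). Of other attachment and matrix genes 6 of 23 had one (26.1%, 10.2 to 48.4), led by rsu-1 (177), a Ras suppressor that binds PINCH, vab-10 (159), a spectraplakin, and ost-1 (143), the basement membrane protein SPARC. Of other membrane and calcium genes 1 of 30 did (3.33%, 0.0844 to 17.2), the syntrophin gene stn-1 (124), a partner of dystrophin. Of other muscle regulators 0 of 12 did, with an exact upper bound of 26.5% (3 counts of 12 are 25.0%). Of genes on the hand-drawn list of pharyngeal muscle products 2 of 11 did (18.2%, 2.28 to 51.8), the innexin gene inx-3 (148) and the actin gene act-4 (141). Whether listed genes are particular to the named tissue was not checked. At git-1 and lam-1, attachment and matrix genes with a summit, another coding gene had the nearest 5′ end. At the other genes with a summit in these lists the gene's own 5′ end was the nearest.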

How the data were processed

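The deposited ce11 peak lists were used. The authors called peaks on each replicate and on the pooled reads of both, against a control library, and took the optimal set from the pooled peaks by irreproducible discovery rate, per the labels and the file lists deposited with them; how reads were aligned and which caller and threshold were applied is not given in the sources used here. The value used is the peak signal, the authors' own deposited number per peak, read only within its list. Read depth is unknown. Lists on ce10 were not used here.

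The optimal set equals the 3053 strongest pooled peaks, and all rows were kept, 16 of which repeat another row's interval. The relaxed lists hold 23800 peaks in replicate 1, 23216 in replicate 2 and 25747 pooled. Each replicate's top list was its 3053 strongest peaks. Gene models came from the Ensembl release 115 annotation of WBcel235, and 9 motifs were sought from 50 bases before to 50 bases after the summits of nuclear peaks. Shares carry 95% exact (Clopper-Pearson) intervals. No test was run, because there is 1 group and the gene list, the classes and the other lists were chosen with earlier results of these data known. All 44 genes are accounted for. Values are given in full for genes with an optimal summit within 1 kb or inside the gene, by name for the 3 strongest pooled summits among the rest, and for up to 3 genes of each other list; the pooled ranks of further genes are given beyond that rule. Of the 97 symbols in the other lists 1, tmd-1, was not found in the annotation. The assignment of summits to genes was checked on simulated summits planted at known distances from 5′ ends. The motif search was not part of that check. Python 3.11.15, pandas 2.3.3, numpy 2.4.6, scipy 1.17.1 and matplotlib 3.10.9 were used.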

Additional observations from a re-analysis of the deposited data

How the results depend on the processing

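The share of all genes that is set beside each count moved with the setting too. The count of 19 muscle genes with an optimal summit within 1 kb (43.2%, against 11.5% of all genes) was 16 with a window of 500 bp, without act-1, cpn-3 and pat-3 (36.4%, against 8.72%). It was 21 with 2 kb, adding tni-1 and unc-97 (47.7%, against 15.9%), 20 with the peak interval in place of the summit (45.5%, against 12.5%) and 16 with the outermost 5′ end alone, without dim-1, dys-1 and unc-89 (36.4%, against 10.6%). With the top list of replicate 2 alone it was 19 (43.2%, against 11.3%), and with that of replicate 1 alone 17 (38.6%, against 11.2%). With summits inside the gene these were 21 (47.7%, against 12.6%) and 19 (43.2%, against 12.7%). The genes changed more than the counts. Without replicate 1, 14 of the 19 were kept and 5 others added, and without replicate 2, 16 were kept and 1 added. Within 1 kb the 2 settings gave 6 to 7 thick filament, 5 to 6 thin filament, 5 to 6 attachment and 0 to 1 membrane genes. Without replicate 2, dys-1 is lost.

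With the stronger 1526 optimal peaks, 5 genes remained within 1 kb (11.4%, against 6.66%), namely 1 thick filament, 2 thin filament, 2 attachment and 0 membrane genes, and 6 with summits inside added (13.6%, against 7.44%). With the 500 strongest, 1 remained on either count (2.27%, against 2.38% within 1 kb and 2.65% with summits inside), an attachment gene, and 0 of each other class. With the top list of each replicate shortened to its stronger 1526 peaks, the mean over replicates was 6.5 (14.8%) in place of 18 (40.9%). The share of all genes under these shortened lists was not computed, so that mean cannot be set against it. Following the pooled list to rank 5000 or to 6106 peaks, both chosen after seeing the data, gave 29 genes each (65.9%, against 16.4% at rank 5000 and 18.7% at 6106). With summits inside the gene, 6106 peaks gave 34 (77.3%, against 21.2%), and attachment genes numbered 9 on both. The outermost 5′ end alone left 0 membrane genes. Windows of 100 bases to each side of the summit held a motif in 15 of 21 cases in place of 9 (71.4% in place of 42.9%), and in 63.6% in place of 44.5% of all optimal windows.

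No paired analysis was possible because there is 1 group. Depth is unknown, so a gene with no peak may have one too weak to be called. The counts depend on where the optimal set ends, since many peaks at muscle genes rank near 3053. Classes of 3 to 15 genes give wide intervals.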

Other observations

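Muscle genes also had optimal peaks beyond 1 kb, with the gene's own 5′ end the nearest of any coding gene. Downstream of act-1 lay a pair of peaks stronger than the one at its promoter. The first (chromosome V, 11082466 to 11082901) had a signal of 158, lay 269 bp past the 3′ end, and ranked 773 in replicate 1 and 1962 in replicate 2. The second (11083657 to 11084092) had a signal of 153, lay 1460 bp past the 3′ end, and ranked 740 in replicate 1 and 1928 in replicate 2.

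Upstream of unc-97, which encodes the PINCH protein of the integrin complex, the peak at -1052 bp (chromosome X, 5591863 to 5592298, signal 169) ranked 1071 in replicate 1 and 744 in replicate 2. Upstream of tni-1 (troponin I) a peak at -1984 bp (chromosome X, 11379236 to 11379671) had a signal of 137, and its ranks were 1366 in replicate 1 and 1305 in replicate 2. Another lay at -1059 bp from mlc-3, inside the neighbouring gene rpc-2 (chromosome III, 5563748 to 5564183), with a signal of 136, above the 103 of the peak at the mlc-3 promoter. It ranked 1237 in replicate 1 and 1322 in replicate 2. Each of these 5 peaks was among the 3053 strongest in both replicates.

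At rank 5000 of the pooled list, 16.4% of all genes had a summit within 1 kb. Such summits were present at 9 of 20 other thick and thin filament genes and 10 of 23 other attachment and matrix genes. Summits were also at 8 of 30 other membrane and calcium genes, 1 of 12 other muscle regulators and 3 of 11 genes on the pharyngeal list. By class of the 44, they were present at 10 of 12 thick filament, 9 of 15 thin filament, 9 of 13 attachment and 1 of 3 membrane genes.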
